A study of Mus musculus with 9 samples.

Results

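Rab GTPases are small proteins that switch between a GTP-bound and a GDP-bound state and mark the membranes of the secretory and endocytic routes. The genes described here are those whose symbol on the array platform is Rab, a number and at most a pair of letters, without interacting proteins and opposite-strand transcripts. There were 59 such genes among the 18194 genes that a probe set names alone, and 52 of them were among the 12009 genes bright enough to test. Expression had been measured on 9 short oligonucleotide arrays of mouse brain, 3 for each of 3 groups. The groups were microvascular fragments (short pieces of small vessels) of NMRI embryos at embryonic day 18.5, what was left of such NMRI brains (called rest of brain), and fragments from adults of mixed C57/SV129 background, 1 female and 2 males, each 1 year old. The labels speak of biological repeats, and give no sex for the embryos, no isolation method and no word on whether animals were pooled.

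In each compartment a Rab protein in its GTP form recruits effectors, such as tethers, motors and adaptors, and so directs the budding, transport and docking of vesicles. Exchange factors load GTP, activating proteins speed its hydrolysis, and GDP dissociation inhibitors carry the inactive protein through the cytosol. Neurons use a set of Rab proteins at the synapse and in the axon, while endothelium of the brain is known for a low rate of vesicle transport across the cell and for regulated release from Weibel-Palade bodies. Values are given as log2 intensity from GCRMA, which corrects the background of such arrays and normalizes them, and a difference is one of group means with the standard error (SE) of a limma fit. A gene is called at a Benjamini-Hochberg adjusted p under 0.05 over all 12009 genes, and values under 4 are treated as background.

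The groups carried the markers of their labels. All 10 endothelial markers were higher in embryonic fragments than in rest of brain and all 10 neuronal markers were lower, with summed linear intensities of the neuronal list of 2047 to 4660 in embryonic fragments, 78256 to 92214 in rest of brain and 1639 to 1794 in adult fragments. The microglia and macrophage list was higher in fragments too, at 47049 to 121347 in embryonic fragments, 8896 to 10538 in rest of brain and 81353 to 118900 in adult fragments. The part of these other cells in the differences given below was not tested. In tissue made of many cells, fewer cells of a type and less RNA per cell cannot be told apart. Since the source of each replicate is not described further, p-values measure the spread between these samples, part of which may be technical.

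Embryonic fragments and rest of brain share strain and, per the titles, age, and their comparison asks which Rab transcripts the vessels hold. For rest of brain replicate 3 the labels' description and title disagree on the embryonic day, and without that array Rab1a, Rab31, Rab5b and Rab6a lost their calls, as given below. Fragments had Rab9b at background, lower levels of Rab3c, Rab33a, Rab6b, Rab39b and Rab30 than the remaining brain by over 3 log2 units, and higher levels of Rab32, Rab27a, Rab29 and Rab43 by over 2. Of the 52 genes tested, 23 were lower and 10 higher in fragments, or 33 in all. Over all genes 37.2% were called lower, 28.9% higher and 66.1% either way, so the share of Rab genes called (63.5%) lay near that of genes in general. By at least 1 log2 unit, 12 Rab genes were lower and 4 higher, where 23.7% and 19.3% of all genes were. The median difference was -0.12 over the Rab genes and -0.10 over all genes.

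**Figure D1:**
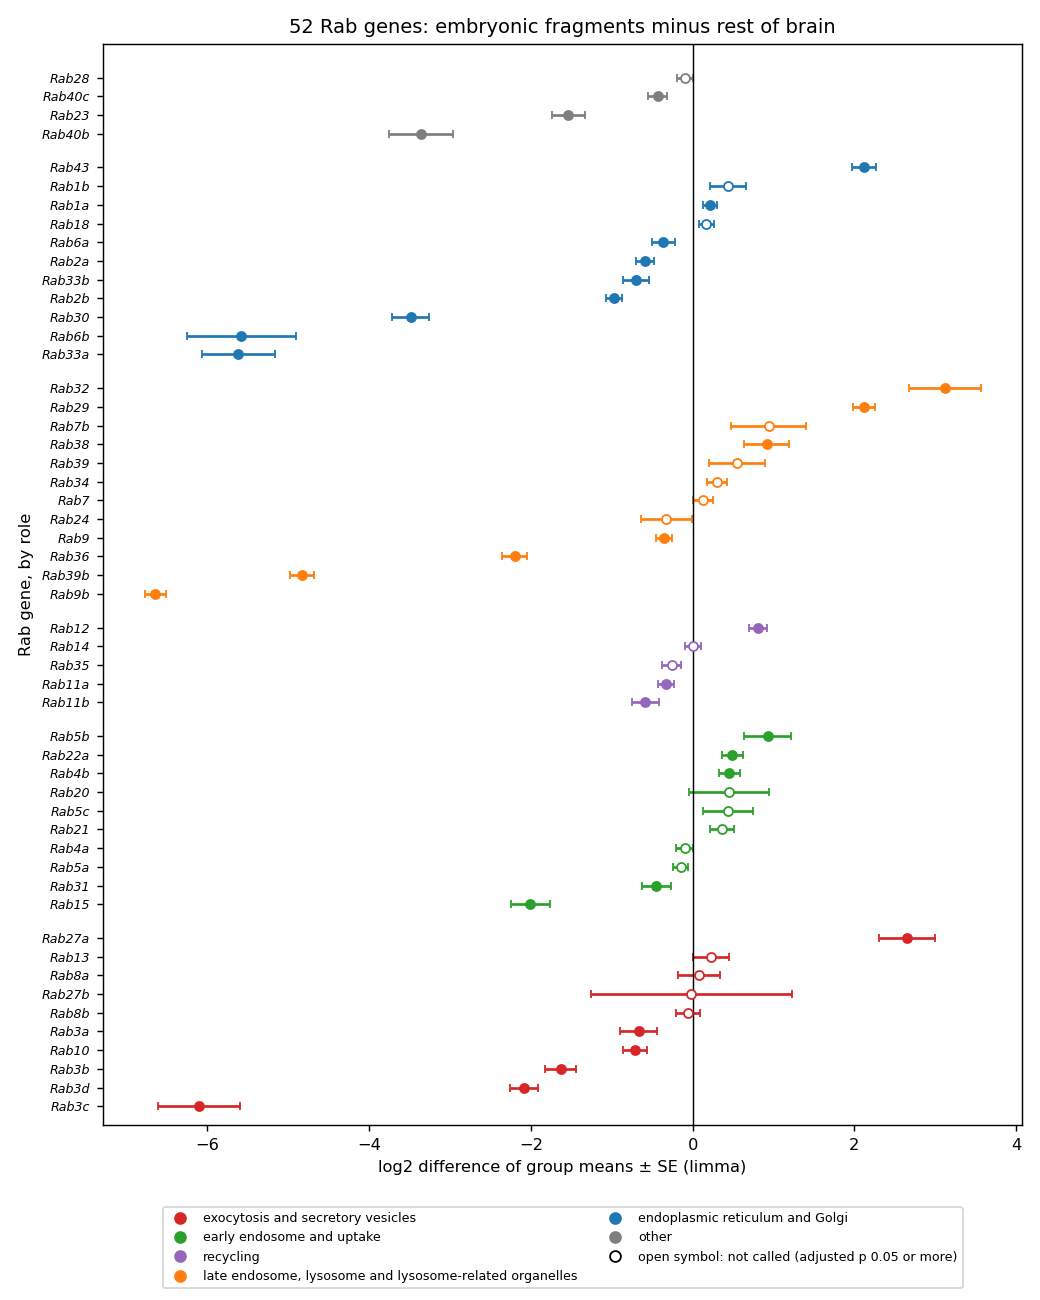
Log2 difference between embryonic fragments and embryonic rest of brain for each of 52 Rab genes, grouped and coloured by role, with bars for the SE of the limma fit and filled symbols for called genes. Most genes lie near 0, 7 genes lie beyond -3 with Rab9b farthest at -6.64, and Rab32 lies farthest to the right at 3.12.

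Rab9b and Rab9 form a pair of related genes whose proteins work on late endosomes, where Rab9 is known for the return of mannose 6-phosphate receptors to the Golgi. Rab9b was at 9.04, 9.22 and 9.55 on the arrays of rest of brain, at 2.61, 2.63 and 2.64 in embryonic fragments, and at 2.52, 2.62 and 2.62 in adult fragments. Every fragment array of both ages lay at background, so Rab9b was at least 38.6-fold lower in embryonic fragments (limma adjusted p = 1.45e-09). Rab9 was at 11.71, 11.65 and 11.49 in rest of brain and at 11.27, 11.29 and 11.24 in embryonic fragments, a difference of -0.35 ± 0.10. The groups did not overlap for either gene, and the difference of Rab9 was under 1 log2 unit. A second such pair is Rab6b and Rab6a, whose proteins serve transport at the Golgi. Rab6b, the form known from neurons, was at 11.68, 11.73 and 11.69 in rest of brain and at 5.77, 7.19 and 5.40 in embryonic fragments (-5.58 ± 0.67, adjusted p = 8.17e-05). Rab6a was at 12.57, 12.48 and 12.51 in rest of brain and at 12.27, 12.21 and 12.00 in embryonic fragments, a difference of -0.36 ± 0.14.

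The 250 bases before the annotated starts of these 4 genes are given to show how far the promoters of related genes differ in sequence, from RefSeq on GRCm38.p6. They are those of Rab9b (chrX:136868557-136868806, minus strand), Rab9 (chrX:166479868-166480117, minus strand), Rab6b (chr9:103111824-103112073, plus strand) and Rab6a (chr7:100607336-100607585, plus strand). Capitals mark matches on either strand to the GC box (GGGCGG) or the CCAAT box (CCAAT).
Rab9b: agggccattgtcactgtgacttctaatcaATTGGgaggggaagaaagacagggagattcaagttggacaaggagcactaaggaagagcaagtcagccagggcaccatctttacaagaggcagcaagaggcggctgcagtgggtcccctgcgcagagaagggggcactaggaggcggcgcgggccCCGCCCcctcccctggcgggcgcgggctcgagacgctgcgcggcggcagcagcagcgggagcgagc
Rab9: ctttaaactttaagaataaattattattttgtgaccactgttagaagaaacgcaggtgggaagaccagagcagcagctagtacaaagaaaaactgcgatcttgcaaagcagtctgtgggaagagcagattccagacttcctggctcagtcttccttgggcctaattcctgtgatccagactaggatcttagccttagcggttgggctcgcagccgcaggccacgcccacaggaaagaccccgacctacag
Rab6b: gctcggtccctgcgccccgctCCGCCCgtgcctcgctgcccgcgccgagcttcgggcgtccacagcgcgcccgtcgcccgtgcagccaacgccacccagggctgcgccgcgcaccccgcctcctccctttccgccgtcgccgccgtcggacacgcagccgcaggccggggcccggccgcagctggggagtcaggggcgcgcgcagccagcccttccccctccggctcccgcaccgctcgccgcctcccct
Rab6a: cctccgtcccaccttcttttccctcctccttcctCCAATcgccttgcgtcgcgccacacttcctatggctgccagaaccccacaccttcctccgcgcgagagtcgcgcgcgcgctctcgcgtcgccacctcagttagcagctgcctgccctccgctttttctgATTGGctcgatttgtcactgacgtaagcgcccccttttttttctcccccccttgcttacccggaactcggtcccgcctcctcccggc
The window of Rab9b held 16 CpG dinucleotides and that of Rab9 held 7, and those of Rab6b and Rab6a held 40 and 24. G and C made up 64.4% and 48.8% of the first pair and 80.8% and 62.8% of the second. Rab9b held 1 GC box and 1 CCAAT box and Rab9 neither, while Rab6b held 1 GC box and Rab6a held 2 CCAAT boxes. Among the 48 Rab genes with an entry in the promoter table, 36 held a GC box and 24 a CCAAT box in at least 1 of their windows, against 32.7% and 33.8% of all 32851 windows in the table, which have fewer CpG (median 6, against 15 over the 60 windows of Rab genes). An ETS motif (CCGGAAGT) was found for 2 Rab genes, Rab11a and Rab24, a cyclic AMP response element (TGACGTCA) for 2, Rab25 and Rab5a, and the core of the lysosomal CLEAR motif (TCACGTGA) for 2, Rab21 and Rab5a. Of all windows 2.88%, 1.55% and 0.785% held these motifs. The TATA box (TATAAA) was found for 4 Rab genes and in 12.4% of all windows. A match is a description of the letters and no binding site.

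Several other genes of the Golgi differed as well. Rab33a, a Golgi and vesicle protein of brain and immune cells, was at 11.41, 11.15 and 11.53 in rest of brain and at 4.995, 6.87 and 5.37 in embryonic fragments (-5.62 ± 0.45, adjusted p = 5.26e-06). Its relative Rab33b, which acts at the Golgi and in autophagy, was at 11.92, 12.13 and 12.31 in rest of brain and at 11.41, 11.36 and 11.50 in embryonic fragments, a difference of -0.69 ± 0.16. Rab30, of the Golgi, was at 10.32, 10.32 and 10.23 in rest of brain and at 7.19, 6.83 and 6.38 in embryonic fragments (-3.49 ± 0.23). None of these 3 genes overlapped between the groups, which was a condition for naming Rab33a and Rab30. Of the 11 genes tested with a role at the endoplasmic reticulum or Golgi, 7 were lower and 2 higher in fragments. Over all genes 37.2% were lower and 28.9% higher. Beside Rab33a, Rab33b, Rab30, Rab6b and Rab6a, the lower ones were Rab2b (-0.98 ± 0.10) and Rab2a (-0.59 ± 0.11), of traffic between the endoplasmic reticulum and Golgi, and the mean of all probe sets of Rab2a ended its call (-0.19, adjusted p = 0.122).

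The genes of the Rab3 proteins, which bind synaptic and secretory vesicles and their release machinery, were all lower in embryonic fragments, by unequal amounts. Rab3c was at 10.25, 10.37 and 10.67 in rest of brain and at 3.27, 5.66 and 4.05 in embryonic fragments (-6.10 ± 0.50, adjusted p = 6.17e-06, under 4 on 1 of 3 fragment arrays). Rab3d was at 8.46, 8.61 and 8.60 in rest of brain and at 6.73, 6.46 and 6.20 in embryonic fragments (-2.09 ± 0.17). Rab3b was at 5.22, 6.01 and 5.93 in rest of brain and between 4.08 and 4.11 in embryonic fragments, close to background (-1.63 ± 0.19). Rab3a, the main form at synapses, had a difference of -0.67 ± 0.23 on its brightest probe set (adjusted p = 0.0290), which is one open to cross-hybridization. Another probe set of Rab3a, without that mark, had means of 9.17 in rest of brain and 4.40 in embryonic fragments, a difference of -4.77. The call on the brightest probe set was lost when embryonic fragments replicate 1 was left out, or replicate 1 or 2 of rest of brain (adjusted p = 0.0816 to 0.103), and with the replicate number as a block (adjusted p = 0.0592). Among the 10 genes tested with a role in exocytosis 5 were lower and 1 higher, against 37.2% and 28.9% of all genes, and the remaining lower gene was Rab10, of exocytic carriers (-0.71 ± 0.14).

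Rab39b, which serves synapse formation, was at 9.26, 9.25 and 9.34 in rest of brain and at 4.35, 4.61 and 4.40 in embryonic fragments (-4.83 ± 0.15, adjusted p = 1.41e-08). Its relative Rab39, of late endosomes, had means of 6.47 ± 0.30 and 7.02 ± 0.50 and a difference of 0.55 ± 0.35, which was not called. Rab40b, of a subfamily that joins ubiquitin ligases, was at 6.22, 6.09 and 6.31 in rest of brain and at 3.14, 2.65 and 2.74 in embryonic fragments, at least 4.61-fold lower. Rab40c had a difference of -0.43 ± 0.12. Rab15, of early and recycling endosomes in neurons, was lower by 4.01-fold (9.13 ± 0.15 in rest of brain against 7.12 ± 0.09), and Rab23, a brake on Hedgehog signalling, by 2.90-fold (8.70 ± 0.08 against 7.16 ± 0.43). Rab36, of lysosome positioning, lay at 4.06 to 4.45 in rest of brain and under 4 on every fragment array of both ages, at least 1.22-fold lower, a call that a floor of 4 removed (adjusted p = 0.0530). In RefSeq, Rab9b, Rab9, Rab33a and Rab39b lie on the X chromosome.

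**Figure D2:**
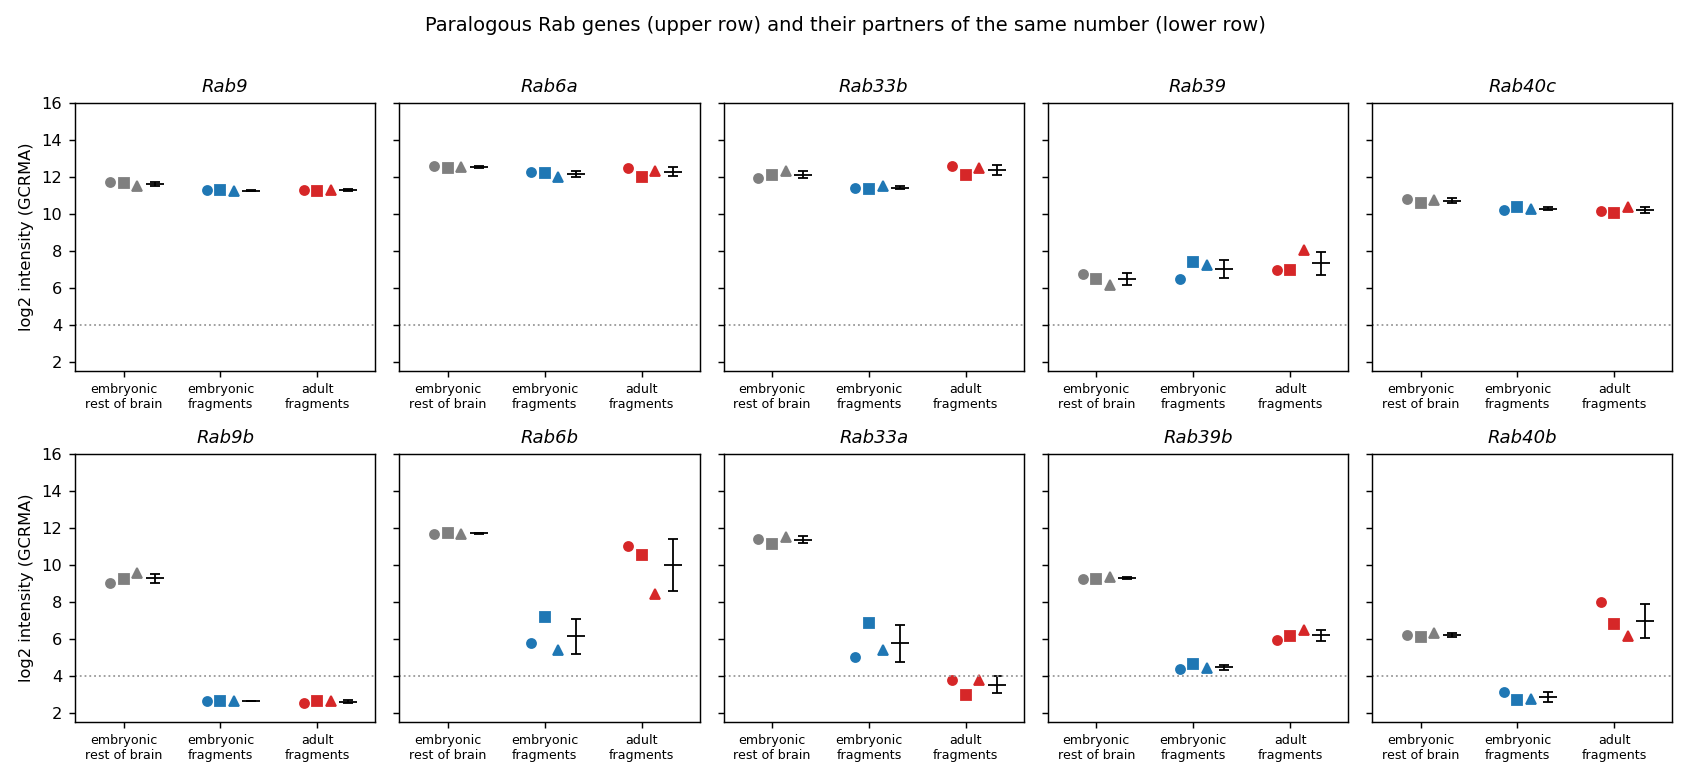
Log2 intensity on each of the 9 arrays for 5 pairs of Rab genes with the same number, 1 pair per column; circle, square and triangle are replicates 1, 2 and 3, black marks the mean ± SD, and the dotted line is the background value of 4. The upper genes differ by under 1 log2 unit between group means, Rab33b the most, at 0.97 between the ages. Rab9b, Rab6b, Rab33a, Rab39b and Rab40b are far lower in embryonic fragments than in rest of brain, and Rab6b, Rab39b and Rab40b lie higher again in adult fragments.

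In each of these 5 pairs a gene was already far lower in embryonic fragments on these same arrays, so a lack of overlap is no further support. For each pair the difference between both genes, taken within each array, did not overlap between embryonic fragments and rest of brain. It shifted by 6.29 ± 0.21 for Rab9 over Rab9b (log2, ± SE from the spread between arrays), by 5.22 ± 0.51 for Rab6a over Rab6b, and by 5.38 ± 0.31 for Rab39 over Rab39b. For Rab33a over Rab33b it shifted by -4.92 ± 0.61 and for Rab40b over Rab40c by -2.93 ± 0.19. An exact 2-sided permutation test gave p = 0.10 for each, the smallest that 3 arrays against 3 can give, so no value adjusted over the pairs can be lower. Permuting within replicate numbers, which were taken to pair the embryonic arrays and were so used after the data had been seen, gave an exact p of 0.25 for each, again the smallest possible. The SE within replicate numbers was 0.19 for Rab9 over Rab9b, 0.47 for Rab6a over Rab6b, 0.42 for Rab39 over Rab39b, 0.72 for Rab33a over Rab33b and 0.22 for Rab40b over Rab40c. The pairs Rab8a and Rab8b (0.13 ± 0.21, exact permutation p = 0.50) and Rab1a and Rab1b (-0.22 ± 0.11, exact permutation p = 0.30) overlapped between the groups. Within replicate numbers the latter had an SE of 0.012 (exact permutation p = 0.25). Other pairs without overlap were Rab2a and Rab2b, Rab4a and Rab4b, Rab5a and Rab5b, Rab11a and Rab11b, and Rab27a and Rab27b. All pairs of Rab3 genes but Rab3b and Rab3d lacked overlap too. That pair, Rab5c with Rab5a or Rab5b, and Rab7 with Rab7b overlapped. How many pairs of genes in general lack overlap was not counted, and 66.1% of all genes were called in this comparison. The differences of Rab11a and Rab11b changed sign on their next brightest probe sets, to 1.61 and 0.41, the latter not called.

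Among the genes higher in embryonic fragments, Rab32, which serves the biogenesis of lysosome-related organelles and mitochondrial dynamics, had the largest difference. It was at 6.98, 7.38 and 7.18 in rest of brain and at 9.38, 10.56 and 10.96 in embryonic fragments (3.12 ± 0.44, 8.70-fold, adjusted p = 2.29e-04). Rab27a, which docks secretory granules and in endothelium acts on Weibel-Palade bodies, was at 5.04, 5.71 and 4.59 in rest of brain and at 7.25, 8.03 and 8.01 in embryonic fragments (2.65 ± 0.34, 6.27-fold). Its relative Rab27b had means of 5.93 ± 0.28 and 5.92 ± 0.84 and was not called. Rab27a fragments and rest of brain did not overlap, and those of Rab27b did.

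Rab29, which recruits the kinase Lrrk2 to the Golgi and lysosomes, was at 7.43, 7.34 and 7.19 in rest of brain and at 9.48, 9.43 and 9.41 in embryonic fragments (2.12 ± 0.14, adjusted p = 1.46e-06). Rab43, of Golgi transport, was at 6.999, 6.75 and 6.73 in rest of brain and at 9.04, 9.13 and 8.67 in embryonic fragments (2.12 ± 0.15, adjusted p = 2.26e-06). Both groups were narrow and clearly apart for these genes. Rab12, which directs transferrin receptor to lysosomes, was at 10.51, 10.40 and 10.58 in rest of brain and at 11.46, 11.18 and 11.25 in embryonic fragments (0.81 ± 0.11). Rab22a, of early endosomes, and Rab4b, of fast recycling, were higher by 0.49 ± 0.13 and 0.45 ± 0.13. Rab38, a partner of Rab32 in melanosome formation, was higher by 0.92 ± 0.28 at levels of 3.20 to 5.12, and Rab5b, of early endosomes, by 0.93 ± 0.29 at levels of 4.18 to 5.75. All 5 melanocyte markers lay at background on every fragment array, and in rest of brain too but for Dct on 1 array. Of 10 genes of early endosomes and uptake 3 were higher and 2 lower, and of 12 genes of late endosomes and lysosomes 3 were higher and 4 lower. Over all genes 28.9% were higher and 37.2% lower, close to or above these shares.

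**Figure D3:**
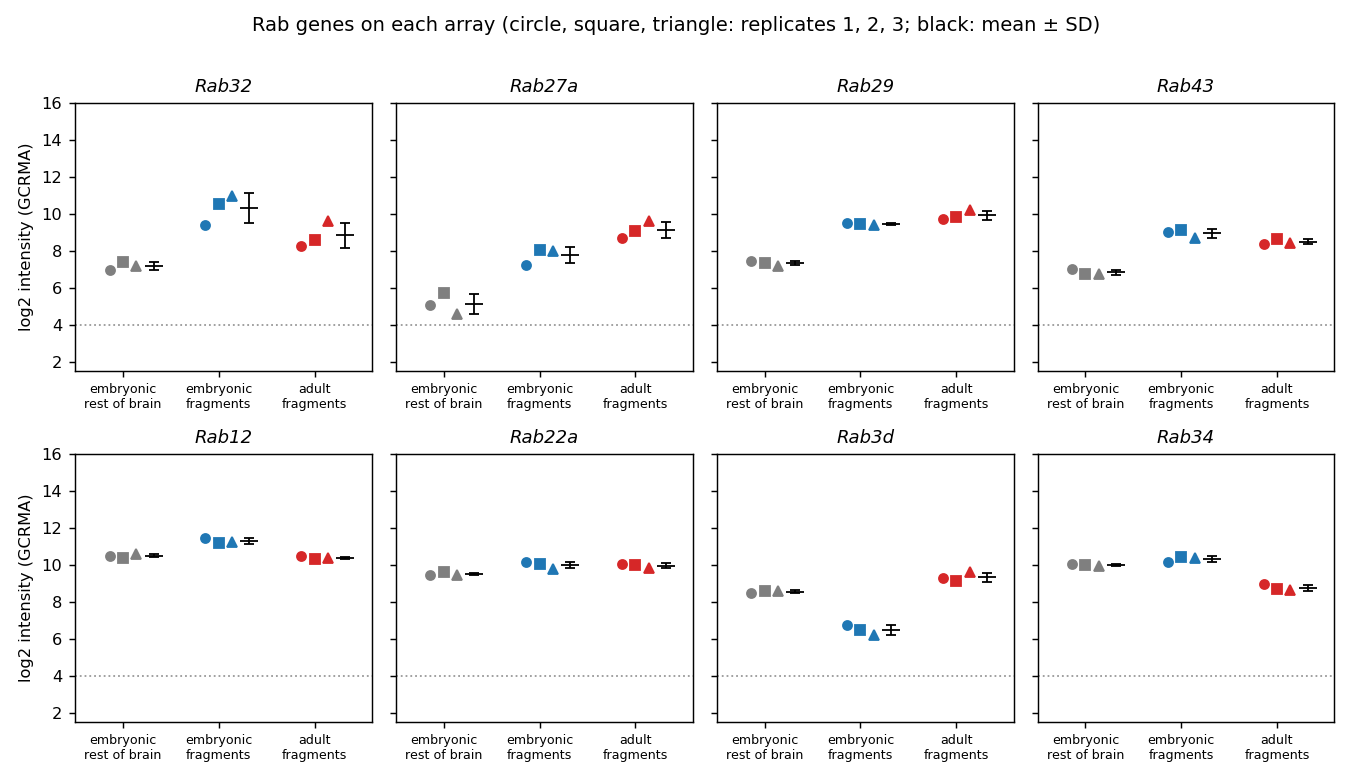
Log2 intensity of 8 Rab genes on each array of the 3 groups; circle, square and triangle are replicates 1, 2 and 3, black marks the mean ± SD, and the dotted line is the background value of 4. Rab32, Rab27a, Rab29 and Rab43 are higher on every fragment array than in rest of brain, Rab3d is lowest in embryonic fragments and Rab34 in adult fragments.

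Several calls of small size in this comparison were lost when 1 array was left out. Adult arrays enter it only through the estimate of spread. Without one of them the differences of Rab1a and Rab6a stayed at 0.22 and -0.36. Rab1a, of traffic from the endoplasmic reticulum to the Golgi, was higher by 0.22 ± 0.09 (adjusted p = 0.0484) and lost its call without any 1 of the 6 embryonic arrays or without adult fragments replicate 1 or 2 (adjusted p = 0.0529 to 0.115), and with the replicate block (adjusted p = 0.0755). Rab6a lost its call without any 1 of the embryonic arrays or without adult fragments replicate 3 (adjusted p = 0.0536 to 0.157). Rab31, of traffic between Golgi and endosomes (-0.45 ± 0.17), lost it without embryonic fragments replicate 1 or 2, any 1 array of rest of brain or adult fragments replicate 3 (adjusted p = 0.0566 to 0.158), and with the block (adjusted p = 0.0592). Rab5b lost it without embryonic fragments replicate 1 or any 1 array of rest of brain (adjusted p = 0.0516 to 0.0550), and Rab38 without embryonic fragments replicate 3 (adjusted p = 0.0614). Without rest of brain replicate 1 the difference of Rab38 came to 0.57. Rab11a, of recycling endosomes (-0.33 ± 0.10), lost it without rest of brain replicate 1 or embryonic fragments replicate 2 or 3 (adjusted p = 0.0528 to 0.0645). With the block, Rab1b (0.44), Rab21 (0.36) and Rab24 (-0.32) passed (adjusted p = 0.0107, 0.0317 and 0.0321). Rab21 also passed when replicate 1 of rest of brain was left out (adjusted p = 0.0199), Rab1b and Rab35 without adult fragments replicate 3 (adjusted p = 0.0267 and 0.0309), and Rab34 without embryonic fragments replicate 1 or adult fragments replicate 1 or 3 (adjusted p = 0.0311, 0.0359 and 0.0479).

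Within the embryonic fragments, some Rab genes were highest or lowest in the same replicate as markers of other cells, and others were not. Such a match over 3 arrays can arise by chance, and how many of all genes show it was not counted. Over all genes tested, replicate 1 had r of 0.984 and 0.985 with replicates 2 and 3, against 0.992 between those. The summed linear intensity of the 10 neuronal markers was 2047, 4660 and 2429 in replicates 1, 2 and 3, and replicate 2 was also the highest for Rab3c, Rab33a and Rab6b. Rab39b and Rab15 were highest in replicate 2 as well. Rab30 (7.19, 6.83 and 6.38), Rab3d (6.73, 6.46 and 6.20) and Rab23 (7.66, 6.92 and 6.90), also lower in fragments, were instead highest in replicate 1. Without replicate 2 the differences of Rab3c, Rab33a and Rab6b from rest of brain kept their calls. The summed intensity of the 8 microglia and macrophage markers was 47049, 111304 and 121347, and replicate 1 was also the lowest for Rab32 (9.38), Rab39 (6.45) and Rab7b, a late endosomal form known from macrophages and dendritic cells (3.71, against 5.55 and 5.71). Rab7b had a difference of 0.94 ± 0.46 from rest of brain and was not called, but passed without embryonic fragments replicate 1 (1.58, adjusted p = 6.97e-05). The summed intensity of the platelet markers was 7637, 10714 and 12313 in replicates 1, 2 and 3, also lowest in replicate 1, against 1170 to 1260 in rest of brain and 398 to 547 in adult fragments, with Gp9 and Itga2b at background in all groups. The part of microglia, macrophages or platelets in the level of Rab32 was not tested.

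**Figure D4:**
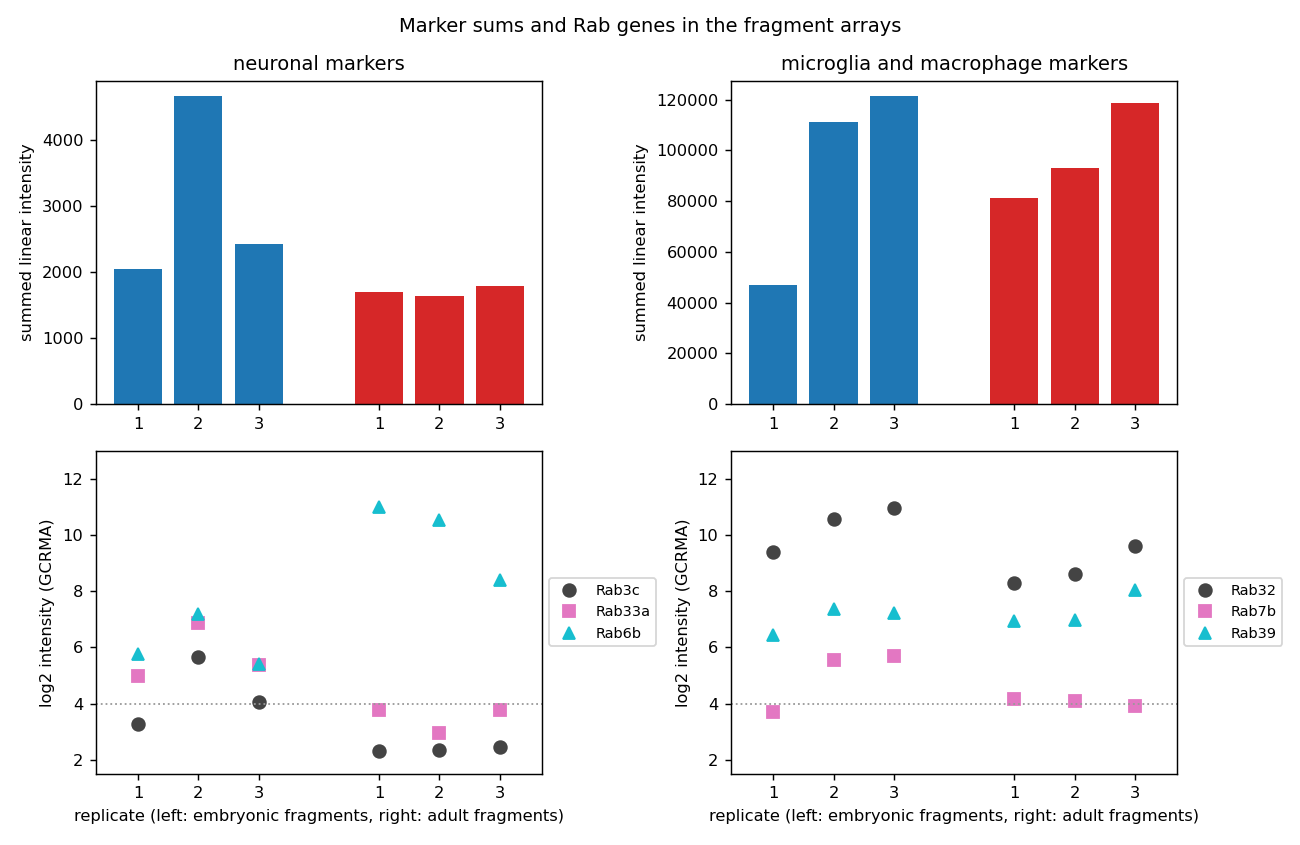
Summed linear intensity of neuronal and of microglia and macrophage markers (bars, upper row) and log2 intensity of 3 Rab genes each (symbols, lower row) on the 3 arrays of embryonic fragments (blue bars, left) and of adult fragments (red bars, right), with a dotted line at the background value of 4. Embryonic replicate 2 is highest in neuronal markers and in Rab3c, Rab33a and Rab6b, and embryonic replicate 1 is lowest in microglia and macrophage markers and in Rab32, Rab7b and Rab39. On the adult arrays Rab6b is lowest in replicate 3 (8.40), where neuronal markers are highest (1794), and Rab32 and Rab39 but not Rab7b are highest in replicate 3, where microglia and macrophage markers are highest (118900).

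Adult and embryonic fragments differ in age, strain and, per the labels' protocols, in the kit used to extract RNA, and these cannot be told apart. Adult fragments held more Rab40b, Rab6b, Rab3d, Rab39b and Rab27a and less Rab30, Rab33a, Rab34 and Rab1b than embryonic ones. Of the 52 genes 14 were higher and 14 lower in adults. Over all genes 27.4% were called higher and 29.7% lower, or 57.1% in all, and 28 Rab genes (53.8%) were called. By at least 1 log2 unit, 5 Rab genes were higher and 7 lower, where 15.7% and 15.3% of all genes were. The median difference was 0.01 over the Rab genes and -0.02 over all genes. Both comparisons use the arrays of embryonic fragments, so a high or low value there enters both. Markers of other cells differed between the ages too. Of 5 smooth muscle markers 4 were higher and 1 lower in adults (median 4.62, summed intensity 46492 to 51443 against 5321 to 7803), and all 5 choroid plexus markers were higher (median 2.62, summed intensity 114519 to 120971 against 53249 to 76299). Of 3 tested platelet markers 2 were lower (median -2.49). Their part in the differences of the Rab genes was not tested.

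**Figure D5:**
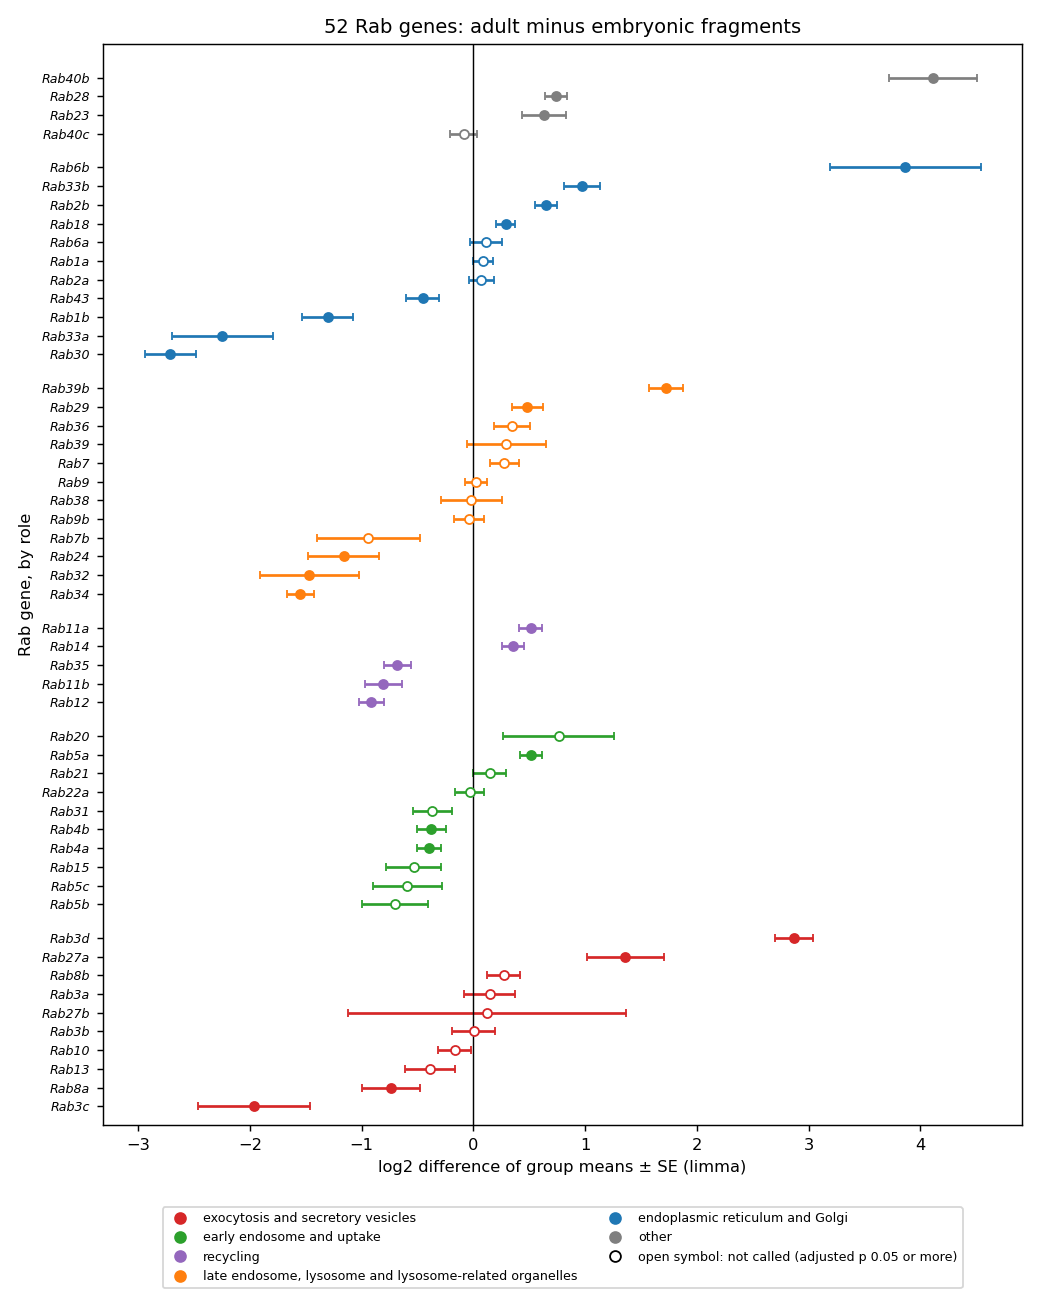
Log2 difference between adult and embryonic fragments for each of 52 Rab genes, grouped and coloured by role, with bars for the SE of the limma fit and filled symbols for called genes. Rab40b (4.11), Rab6b (3.87) and Rab3d (2.87) lie farthest to the right and Rab30 (-2.71) and Rab33a (-2.25) farthest to the left, while Rab27b has the widest error.

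Rab3d, the form of non-neuronal secretory granules, was at 9.27, 9.12 and 9.61 in adult fragments against 6.73, 6.46 and 6.20 in embryonic ones, with no overlap (2.87 ± 0.17, adjusted p = 2.29e-06). Both of its other tested probe sets were higher in adult fragments as well, by 1.81 and 2.64. Rab40b was at 7.97, 6.77 and 6.13 in adult fragments and at background on every embryonic fragment array, at least 7.76-fold higher. Rab27a was at 8.72, 9.06 and 9.60 in adult fragments against 7.25, 8.03 and 8.01 (1.36 ± 0.34, adjusted p = 0.00896), so that its order ran from rest of brain over embryonic to adult fragments without overlap. Rab27b was at 7.72, 2.58 and 7.82 in adult fragments, where replicate 2 lay at background. Its difference of 0.12 ± 1.24 was not called, but without that array, the one of the adult labelled female, it came to 1.85 (adjusted p = 0.00821).

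Rab6b was at 11.01, 10.56 and 8.40 in adult fragments, above all embryonic fragment arrays, with replicate 3 the lowest (3.87 ± 0.67, adjusted p = 0.00124). Rab39b was at 5.92, 6.14 and 6.48 against 4.35, 4.61 and 4.40 (1.73 ± 0.15, adjusted p = 2.31e-05). For both genes other probe sets differed. Those of Rab6b had differences of 2.002 (called), 0.22 and -0.068, and that of Rab39b had 0.43, the last 3 of these 4 not called. Beside them, 5 of 6 tested astrocyte markers were higher and 1, Gja1, lower in adult fragments than in embryonic ones. The summed intensity of the astrocyte list overlapped, at 21644 to 25926 in adult and 20449 to 23783 in embryonic fragments. Of 5 oligodendrocyte markers 2, Mbp and Mobp, were higher and 1, Olig2, lower (median -0.0092). The neuronal list had 2 of 10 higher and 4 lower, and the neuronal genes Elavl3, Tubb3, Nefl and Dcx lay at background on every adult array. The part of these cells in the differences of Rab6b and Rab39b was not tested.

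Called higher in adult fragments by smaller amounts were Rab33b (0.97 ± 0.16), Rab28, of photoreceptors and cilia (0.74 ± 0.10), Rab2b (0.65 ± 0.10) and Rab23 (0.63 ± 0.20). So were Rab5a, of early endosomes (0.51 ± 0.10), Rab11a (0.51 ± 0.10) and Rab29 (0.48 ± 0.14). Rab14, of endosome to Golgi traffic (0.36 ± 0.10), and Rab18, of lipid droplets (0.29 ± 0.09), were called higher too. Rab28 was at 11.72, 11.66 and 11.71 in adult fragments against 11.001, 10.89 and 10.98. Rab33b was at 12.60, 12.08 and 12.50 in adult fragments against 11.41, 11.36 and 11.50. Neither gene overlapped between the ages, which was a condition for naming Rab33b.

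Among the genes lower in adults, Rab30 was at 4.40, 4.15 and 3.71 in adult fragments against 7.19, 6.83 and 6.38 in embryonic ones (-2.71 ± 0.23, adjusted p = 1.87e-05). Rab33a lay at background on every adult array, at least 3.35-fold lower. Rab3c did so too, at 2.30, 2.34 and 2.45, at least 1.25-fold lower, a call that a floor of 4 on all values removed (adjusted p = 0.253). Without embryonic fragments replicate 2 its difference came to -1.30 rather than -1.96. Rab34, which serves lysosome positioning and cilia, was at 8.96, 8.68 and 8.66 in adult fragments against 10.15, 10.43 and 10.36 (-1.55 ± 0.12, adjusted p = 1.25e-05). Rab1b, of traffic from the endoplasmic reticulum to the Golgi, was at 8.47, 8.06 and 9.05 against 9.79, 9.72 and 9.98 (-1.30 ± 0.23). Rab24, of autophagy, was at 9.01, 9.17 and 10.27 against 10.52, 10.51 and 10.90 (-1.16 ± 0.32). None of these 6 genes overlapped between the ages, which was a condition for naming Rab30, Rab34, Rab1b and Rab24. For Rab1b and Rab24 adult replicate 3 was the nearest to the embryonic arrays.

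Rab12 was at 10.46, 10.33 and 10.37 in adult fragments, below all embryonic fragment arrays (-0.91 ± 0.11, adjusted p = 1.53e-04). Rab11b was lower by 0.81 ± 0.16 on its brightest probe set, with values of 10.84, 10.71 and 11.33 against 11.68, 11.79 and 11.83. Rab32 was at 8.28, 8.61 and 9.61 in adult fragments, which overlap the embryonic ones (-1.47 ± 0.44, adjusted p = 0.0197). The remaining lower genes were Rab8a, of exocytosis and cilia (-0.74 ± 0.26), Rab35, of fast recycling (-0.68 ± 0.12), Rab43 (-0.45 ± 0.15), Rab4a, of fast recycling (-0.40 ± 0.11), and Rab4b (-0.38 ± 0.13). Of the 5 tested genes of recycling endosomes 2 were called higher and 3 lower, where 57.1% of all genes were called either way. These include Rab11a, Rab11b and Rab14, which on their next brightest probe sets came to -0.32, 1.29 and -0.92.

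Calls between the ages that were lost when 1 array was left out were those of Rab32, Rab23, Rab18, Rab29, Rab43, Rab4b and Rab8a. Arrays of rest of brain enter this comparison only through the estimate of spread. Without any 1 of them the difference of Rab8a stayed at -0.74. Rab32 and Rab23 lost theirs without embryonic fragments replicate 2 or 3 or adult fragments replicate 1 or 2 (adjusted p = 0.0597 to 0.0710 for Rab32 and 0.0613 to 0.0860 for Rab23). Rab18 lost it without embryonic fragments replicate 2 or 3 or adult fragments replicate 2 (adjusted p = 0.0528 to 0.0684) and Rab29 without embryonic fragments replicate 3 (adjusted p = 0.0507). Rab43 lost it without embryonic fragments replicate 1 or 2 or adult fragments replicate 1 or 3 (adjusted p = 0.0626 to 0.102). Rab4b lost it without any 1 array of embryonic fragments or adult fragments replicate 1 or 2 (adjusted p = 0.0701 to 0.0984), and Rab8a without any 1 of the 9 arrays but adult fragments replicate 3 (adjusted p = 0.0504 to 0.122). Rab7b (adjusted p = 1.52e-04) and Rab31 (adjusted p = 0.0445) passed without embryonic fragments replicate 1, Rab20 (adjusted p = 0.0268) without adult fragments replicate 1, Rab7 (adjusted p = 0.0125) without adult fragments replicate 2, and Rab15 (adjusted p = 0.0309) without adult fragments replicate 3. Rab5b passed without embryonic or adult fragments replicate 3 (adjusted p = 0.0102 and 0.0389).

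Adult fragments and embryonic rest of brain differ in tissue, age and strain at once, which cannot be told apart. Since the RNA kits of adult and embryonic fragments differ, rest of brain cannot match both. A difference of kit thus enters either this comparison or that of embryonic fragments with rest of brain. Of the 52 genes 15 were higher and 23 lower in adult fragments, where 33.1% and 42.9% of all genes were called, and 38 in all (73.1%, against 76.0%). By at least 1 log2 unit 5 were higher and 12 lower, where 23.6% and 29.2% of all genes were. With cyclic loess in place of the deposited scaling 20 were higher and 19 lower, counted over all Rab genes that passed the filter in that setting. Of the 52, 4 gained a call as higher there, namely Rab11a, Rab33b, Rab39 and Rab8b. Rab27a was higher by 4.01 ± 0.34, Rab29 by 2.603 ± 0.14, Rab43 by 1.66 ± 0.15 and Rab32 by 1.65 ± 0.44, all without overlap. The next brightest probe set of Rab43 came to 0.41 and was not called (adjusted p = 0.189). Rab3d, lower in embryonic fragments, lay above rest of brain in adult ones (0.78 ± 0.17). Rab28 was higher by 0.65 ± 0.10. Rab33a was at least 165-fold, Rab3c at least 86.4-fold and Rab9b at least 38.6-fold lower in adult fragments, and Rab30 had a difference of -6.20 ± 0.23. Rab39b (-3.11 ± 0.15) and Rab15 (-2.54 ± 0.25) were lower as well. Rab40b was not called at 0.75 ± 0.40, but passed without adult fragments replicate 3 (1.16, adjusted p = 0.0125). Rab6b, at -1.72 ± 0.67 (adjusted p = 0.0439), lost its call without embryonic fragments replicate 1, adult fragments replicate 3 or any 1 array of rest of brain (adjusted p = 0.0550 to 0.109).

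Several probe sets were available for 36 of the 52 tested genes, and for 14 the brightest was of a kind with probes common to several transcripts. Between embryonic fragments and rest of brain, 20 other probe sets of 14 genes were called in the same direction and 1, of Rab11a, in the opposite one. That probe set, one of shared probes, had a difference of 1.61 where the brightest had -0.33, so no direction can be given for Rab11a. Another 22 probe sets, of 16 genes, were not called, and 25, of 17 genes, were not tested. For Rab14, 3 other probe sets were called higher (0.63, 1.83 and 2.05), where the brightest was not called (0.0086). Between the ages 11 other probe sets agreed in direction and 7, of Rab11a, Rab11b and Rab14, were called the opposite way. There 23 were not called, 25 were not tested, and 5, of Rab10, Rab21, Rab2a and Rab6a, were called where the brightest was not. Both other probe sets of Rab11b were higher in adult fragments, by 1.29 and 1.51, where the brightest was lower by 0.81. The differences of the 7 probe sets of Rab14 ranged from -1.89 to 0.58. Directions between the ages are therefore not settled for Rab11a, Rab11b and Rab14. They also turned for Rab18, to -0.25 on its next brightest probe set, and for Rab8a, to 0.19 with the mean of its probe sets. Between adult fragments and rest of brain the direction turned for Rab28, to -0.27. None of these 3 values was called (adjusted p = 0.234, 0.334 and 0.393). Between the ages the other probe set of Rab28 came to 0.061 (adjusted p = 0.894), and the mean of the probe sets of Rab2b to 0.14 (adjusted p = 0.357), so neither call held there. For Rab3c the next brightest probe set came to -0.29 (adjusted p = 0.438), and for Rab4a to -0.89 (adjusted p = 0.101). The next brightest probe set of Rab6b showed no call between embryonic fragments and rest of brain (-0.39), while its 3 others showed differences of -5.58, -4.52 and -4.22. In that comparison the next brightest probe set kept the call with another size for Rab30 (-1.40), Rab3d (-0.92), Rab23 (-0.76), Rab43 (1.39) and Rab12 (2.33).

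Of 56 listed regulators of Rab proteins 51 were tested, and 22 were higher and 10 lower in embryonic fragments than in rest of brain (median 0.29, against -0.10 over all genes, of which 28.9% were higher and 37.2% lower). Dennd3, an exchange factor of Rab12, was at 10.92, 10.61 and 10.33 in embryonic fragments and at background on every array of rest of brain, at least 98.2-fold higher. Adult fragments lay at 10.81 to 10.88. Rin3 and Rin1, exchange factors of Rab5 proteins, were higher by 3.33 ± 0.18 and at least 10.03-fold, and Rab3il1, of the Rabin family that acts on Rab3a and Rab8, by 2.59 ± 0.46. Evi5l (-2.61 ± 0.23), Rabgap1l (-2.39 ± 0.19), Tbc1d9 (-1.80 ± 0.16) and Mon1b, a part of the exchange factor of Rab7 (-1.69 ± 0.18), were lower, the first 3 being proteins with a domain of Rab activating proteins. In adult against embryonic fragments 16 regulators were higher and 13 lower (median 0.17, against -0.02 over all genes, of which 27.4% were higher and 29.7% lower). Tbc1d9 (2.59 ± 0.16), Hps1, of the exchange factor of Rab32 and Rab38 (2.24 ± 0.70), Tbc1d4 (1.42 ± 0.28) and Dennd1b (1.25 ± 0.13) were higher. Tbc1d16 (-2.89 ± 0.27), Rin3 (-1.68 ± 0.18), Rab3il1 (-1.54 ± 0.46) and Dennd2a (-1.38 ± 0.16) were lower.

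Of 51 listed effectors 42 were tested, with 15 higher and 15 lower in embryonic fragments (median 0.08, against -0.10 over all genes, of which 28.9% were higher and 37.2% lower). In adult against embryonic fragments 20 effectors were higher and 4 lower (median 0.32, against -0.02 over all genes, of which 27.4% and 29.7% were). Rph3a and Rims1, effectors of Rab3 proteins in transmitter release, lay at background on every fragment array of both ages and were at least 9.98-fold and at least 11.5-fold lower in embryonic fragments. Rims2 had a difference of -4.89 ± 0.60 and Rab11fip4, of recycling endosomes, one of -4.49 ± 0.09. Rims2 was higher in adult fragments than in embryonic ones, at 7.36, 10.22 and 9.31 against 5.14 to 5.68 (3.51 ± 0.60). The effectors of Rab27 proteins given next were singled out after their values were seen. Sytl4, a granuphilin, was at 7.74, 6.96 and 7.30 in embryonic fragments and at background in rest of brain, at least 10.1-fold higher, and Sytl2 was higher by 2.09 ± 0.27. Rph3al was at least 6.76-fold higher. Myrip, which links Rab27a to myosin, had no call there (-0.58 ± 0.30) but was at 11.81, 12.16 and 12.50 in adult fragments against 6.84, 7.27 and 6.26 in embryonic ones (5.36 ± 0.30, adjusted p = 1.64e-06). Sytl2 was higher in adult than in embryonic fragments by 2.84 ± 0.27 and Rph3al by 0.75 ± 0.20, while Sytl4 had no call. Mlph lay at background in embryonic fragments and at 4.34, 4.51 and 4.35 in adult ones. Sytl1 and Unc13d were not bright enough to test. Myo5a, a motor that Rab proteins recruit, was lower in adult than in embryonic fragments by 2.82. Osbpl1a, a late endosomal effector of Rab7, was higher by 3.71 ± 0.17.

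The other 7 Rab genes did not reach 4 on 3 arrays and were not tested. Rab25 and Rab17, of epithelia, Rab26, of secretory granules, Rab37 and Rab44 lay under 4 on all 9 arrays. Rab19 was at 5.32, 3.23 and 5.65 in adult fragments and at 2.03 to 2.04 on the 6 embryonic arrays. Rab42 was at 4.44, 3.71 and 4.41 in adult fragments and under 4 on every embryonic array. Among tested genes, 9 had no call on their brightest probe set between embryonic fragments and rest of brain or between the ages. They were Rab7, Rab8b, Rab13, Rab20, Rab21, Rab27b, Rab39, Rab5c and Rab7b. The other probe set of Rab21 was called higher in adult than in embryonic fragments (1.27, limma adjusted p = 3.47e-04). Rab8b, of exocytosis, varied from 11.87 to 12.54 over all 9 arrays, and Rab7, the late endosomal form, from 12.99 to 13.62.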

How the data were processed

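The authors deposited log2 values, 1 per probe set and array. The submitters' processing notes name GCRMA 2.6.0 and R 2.4.1. GCRMA normalizes by quantiles, so a change in total RNA per cell cannot be seen. The log2 scale follows from the range of the values. Each gene was represented by its brightest probe set (mean over 9 arrays) among the 34958 naming it alone, and tested if it reached 4 on 3 or more arrays, a filter through which a gene bright in 1 group passes because of that group.

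One fit over all 9 arrays gave the 3 comparisons (limma 3.58.1, R 4.3.3; lmFit, eBayes, 2-sided) and was checked on simulated data. A fold is the antilog of a log2 difference. Where 1 group lay under 4 on all its arrays, the mean of the other against 4 gives an "at least" fold. Alternatives were other scalings, filters and a floor of 4, other probe sets, other fits, the replicate block and leaving out each array. For arrays, their number limits the precision. Per the platform table and RefSeq, 0 symbols changed. The table had 0 unused per-sample columns. Members, role groups and lists were chosen with earlier results of these data known. Named with all arrays were the 6 largest called differences per direction and comparison without overlap, whose higher group averaged 6 or more, and genes of the same number. In the comparison that named a gene, its lack of overlap is thus no further support. Of regulators and effectors the 4 largest per direction were named. Same-numbered embryonic arrays deviated from their group means together (r = 0.194, 0.199 and 0.217 over 12009 genes, which are not independent), so the numbers were taken to pair embryonic samples. Embryonic arrays of different number had r of -0.209 to -0.0210. Same-numbered arrays did not deviate together throughout between adult and embryonic fragments (r = 0.0325, -0.0826 and 0.214), nor between adult fragments and rest of brain (r = -0.0923, -0.0668 and 0.129). Yet adult fragments replicate 2 had r = 0.208 with embryonic fragments replicate 1 and 0.201 with rest of brain replicate 1. Values of that size thus also occur between unpaired arrays, and the pairing stays an assumption.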

Additional observations from a re-analysis of the deposited data

How the results depend on the processing

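Counts of Rab genes called higher or lower stayed within 1.5 times in each comparison under all alternatives but those with the next brightest probe set and with the mean of all probe sets. With the next brightest probe set, 8 rather than 14 genes were higher in adult than in embryonic fragments and 9 rather than 15 higher than in rest of brain, with 42 genes tested. With the mean of all probe sets 9 were higher than in rest of brain. With the replicate block, 11 genes were higher and 22 lower in embryonic fragments than in rest of brain, and the block changed no call besides those given above. Of 33, 28 and 38 calls in the 3 comparisons, 22, 12 and 23 held in every alternative that tested the gene.

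Signs reversed with the choice of probe set alone, in part to values that were not called. With the next brightest one, Rab11a came to 1.61 and Rab11b to 0.41 between embryonic fragments and rest of brain. Between the ages Rab11a came to -0.32, Rab11b to 1.29, Rab14 to -0.92, Rab18 to -0.25 and Rab6b to -0.068. Between adult fragments and rest of brain Rab11b came to 1.70, Rab14 to -0.94, Rab18 to -0.40, Rab23 to 0.25 and Rab28 to -0.27. With the mean of all probe sets, Rab11a came to 0.64 between embryonic fragments and rest of brain, Rab11b to 0.67, Rab14 to -0.43 and Rab8a to 0.19 between the ages, and Rab11b to 0.61 and Rab8a to 0.21 between adult fragments and rest of brain. Without probe sets of shared probes Rab18 came to -0.25 and -0.40 in the comparisons with adults. The reversed values of Rab6b, Rab8a, Rab23 and Rab28, and that of Rab11b at 0.41, were not called (limma adjusted p = 0.198 to 0.839). Those of Rab18 were not called either (adjusted p = 0.0518 to 0.234), but for the one against rest of brain without shared probes (adjusted p = 0.0471). All others were called. The cause of the reversals was not tested.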
